A study of Homo sapiens with 30 samples.

Results

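Frame-shifting cassette exons of intermediate inclusion were set beside the transcript level of their genes in human cells labelled knockout (KO) or wild type (WT) for the RNA-binding protein QKI. An event, meaning an exon together with its neighbouring exons, was a member on a given day under 3 conditions. The exon was longer than 27 bases and its length was not a multiple of 3. Its mean inclusion level in the first arm of the deposited splicing table of that day lay from 0.1 to 0.9. The mean number of junction reads, counting inclusion and skipping together, was at least 20 per library in each arm. Of 134143 distinct events in the tables, 7275 met the rule on at least 1 day, in 5668 exons of 3678 genes. There were 4771 members of 92139 events at D0, 3437 of 69923 at D4 and 4238 of 92068 at D8; 1735 were members on all 3 days and 3839 on 1 day. Members were chosen by their inclusion levels and junction reads in the same contrasts, so inclusion differences of the members are given as a description with no test. Gene counts were not part of the rule, except that the minimum of junction reads keeps out genes nearly silent in an arm.

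The libraries came from Hues6 human embryonic stem cells labelled QKI KO or WT, with 3 poly(A) RNA libraries of each genotype at day 0 (D0, pluripotent cells), day 4 (D4, cardiac progenitor stage) and day 8 (D8, cardiomyocyte stage). KO cells entered differentiation with 1.25 uM CHIR and WT cells with 1.5 uM, a compound that activates WNT signalling through GSK3. Both received 1.5 ng/mL BMP4 and later 100 nM C59, an inhibitor of WNT secretion. At D4 and D8 the genotype and the CHIR dose therefore cannot be told apart. Nuclear RNA was sequenced at D8 from both genotypes (3 libraries each). In 293T cells, a transformed human embryonic kidney line, 3 libraries followed an siRNA against QKI and 3 a non-targeting siRNA, at 10 µM per the labels. The labels give neither the number of KO clones nor whether the libraries within a group were grown as independent cultures, so p-values measure the spread between these libraries, which may be technical.

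The splicing tables name their arms only as first and second. Inclusion differences are second arm minus first arm throughout, and gene differences are KO over WT. Junction reads of QKI itself in the second arm were 4.18 to 8.24% of those in the first at D0 (4 events), 17.1 to 55.1% at D4 (7 events), 13.6 to 186% at D8 (12 events, median 93.2%) and 15.6 to 24.4% in 293T cells (5 events). Across members, the log2 ratio of junction reads (second over first arm) followed the gene log2 fold change (KO over WT), with Pearson r = 0.68 at D0, 0.75 at D4 and 0.79 at D8 over 4747, 3422 and 4215 events. These values share libraries, and events of a gene share its counts.

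Skipping or including an exon whose length is not a multiple of 3 moves every later codon into another frame, and translation then usually meets a stop codon early. A stop codon that lies well upstream of the last exon junction marks an mRNA for nonsense-mediated decay (NMD), a surveillance pathway led by UPF1 that removes the transcript. Many genes of splicing regulators use this: they carry a conserved "poison" exon whose inclusion, or an exon whose skipping, gives an unproductive mRNA, so that splicing sets the amount of productive message. Other frame-shifting exons lie in untranslated leaders or near the end of the coding sequence, or are used as alternatives to each other, and change the protein without marking the mRNA for decay. An inclusion level is measured on the RNA present, so a form that is degraded weighs less in it than it was made.

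Exons were placed in the GENCODE v29 annotation (GRCh38) by gene, exon length and flanking intron lengths, and the reading frame was followed through the form with and without the exon. A stop codon more than 50 bases before the last junction was taken as premature. Of the 7275 members, 883 (12.1%) had a premature stop when skipped and 493 (6.78%) when included. In 432 both forms were known coding transcripts, 613 gave no premature stop in either form, 1243 lay in the 5′ untranslated region or held the start codon, and 9 lay in the 3′ untranslated region. A further 1150 matched no complete coding transcript and 2452 were not placed. A member was put in a stop class only where no complete coding transcript of the gene has the other form. The sequences below are those of stop-class exons on which the results turn, on the transcript strand from the GENCODE v29 transcripts, with the premature stop codon in capitals. SRSF6 (a serine/arginine-rich splicing factor), 268-base poison exon at chr20:43459153-43459420 on the plus strand, is shown up to the in-frame stop codon, which follows 149 bases of the exon.
SRSF6 exon: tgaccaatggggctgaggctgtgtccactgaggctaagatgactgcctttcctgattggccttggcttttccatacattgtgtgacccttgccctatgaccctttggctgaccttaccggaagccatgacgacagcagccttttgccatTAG

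CLK1 and CLK4 encode kinases that phosphorylate SR proteins. Their 91-base exons, at chr2:200860125-200860215 and chr5:178617344-178617434, both on the minus strand, are identical at 85 of 91 bases. Skipping either joins the upstream exon to a sequence in which the shifted frame meets TAG after 18 bases in CLK1 and after 45 bases in CLK4.
CLK1 exon: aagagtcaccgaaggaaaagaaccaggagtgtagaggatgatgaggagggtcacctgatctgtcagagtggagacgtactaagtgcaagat
CLK4 exon: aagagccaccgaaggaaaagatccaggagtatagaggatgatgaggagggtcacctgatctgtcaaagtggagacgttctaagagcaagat
CLK1 after skipping: atgaaattgttgatacttTAG
CLK4 after skipping: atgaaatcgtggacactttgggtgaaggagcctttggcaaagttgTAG

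PTBP2, the neural paralogue of the polypyrimidine tract-binding protein, has a 34-base exon at chr1:96806419-96806452 on the plus strand that is skipped into NMD in non-neural cells. UPF3A, an NMD factor, has a 107-base exon at chr13:114282837-114282943 on the plus strand.
PTBP2 exon: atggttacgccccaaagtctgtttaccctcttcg
PTBP2 after skipping: gtgtttatggagatgtgcagcgtgTGA
UPF3A after skipping: atccagaataTAA

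Whole-cell libraries held 40001076 to 89948185 counts and nuclear libraries 6549676 to 15030590. QKI stood at 41.3, 41.3 and 35.5 CPM (counts scaled to library size, over TMM-scaled totals) in KO libraries at D0, against 300.4, 293.9 and 285.6 in WT. At D4 it stood at 88.5, 68.2 and 77.98 CPM in KO, against 143.7, 139.3 and 156.4 in WT. At D8 the libraries labelled KO held 339.8, 329.4 and 336.5 CPM and the WT libraries 368.0, 319.0 and 284.6, so the gene-level count does not separate the D8 labels. In nuclear RNA the libraries labelled KO held more QKI than WT, by a log2 fold change of 1.66. Summed levels of several marker lists differed between the labels on each day, though abundant genes weigh most in a sum and single markers could differ from it. The 8 cardiomyocyte markers summed to 26982 to 31819 CPM in the libraries labelled KO at D8 and 9742 to 17089 in WT. The 6 surface ectoderm and amnion markers summed to 10.9 to 19.2 CPM in the libraries labelled KO at D8 and 471 to 921 in WT. The 6 pluripotency markers summed to 523 to 604 CPM in the libraries labelled KO at D8 and 1212 to 1551 in WT. By edgeR's quasi-likelihood test (adjusted p under 0.05), 6 of the 8 cardiomyocyte markers were called higher at D8 and 1 lower. Of the 6 pluripotency markers 1 was called higher and 4 lower, and all 6 ectoderm and amnion markers were called lower. Over all genes, 29.4% were called higher and 26.2% lower at D8. No marker of these lists was at 0 at D8, though 2 of the ectoderm markers were under 1 CPM in the libraries labelled KO. At D4 the ectoderm and amnion markers summed to 10.6 to 13.7 CPM in KO and 34.7 to 69.6 in WT, and the 6 endoderm markers to 202 to 221 CPM in KO and 77.3 to 86.2 in WT. At D0 the endoderm markers summed to 5.71 to 6.33 CPM in KO, where 5 of 6 were under 1 CPM, and 0.793 to 1.45 in WT, where all 6 were. The 4 endothelial markers listed summed to 37.4 to 40.9 CPM in KO at D0 and 16.3 to 16.8 in WT. At D0, 5 of the 6 pluripotency markers and 7 of the 8 cardiomyocyte markers were not called. The part of cell makeup in the results of any day was not tested.

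The first question is how the genes that hold these exons moved. At D0, 2578 of the 2597 member genes passed the filter on low counts, and 1359 of them (52.7%) were called between KO and WT by edgeR's quasi-likelihood test (adjusted p under 0.05 over all genes), 691 higher and 668 lower in KO. Over all 21761 genes tested, 42.3% were called. At D4, 638 of 2135 member genes were called (29.9%, background 28.4%), 340 higher and 298 lower. At D8, 1522 of 2415 were called (63.0%, background 55.6%), 863 rising and 659 falling where the label is KO. Because a member needs junction reads in both arms, its gene is expressed in both, which is not so for all genes tested. In bulk RNA, fewer cells that express a gene and less of its RNA per cell cannot be told apart.

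The changes of member genes were small. The median absolute log2 fold change was 0.22 at D0, 0.14 at D4 and 0.27 at D8, against 0.32, 0.23 and 0.39 over all genes tested. For genes holding frame-preserving cassette exons that met the other conditions it was also 0.22, 0.14 and 0.27. Small changes were thus not particular to the frame-shifting kind. The median log2 fold change of member genes was -0.00, -0.02 and 0.04. At least 2-fold changes among the called genes numbered 65, 29 and 146. Genes holding frame-preserving cassette exons that met the same conditions on reads and inclusion were called at 52.2%, 33.3% and 62.0%. The shares for both kinds of exon thus lay within 1 percentage point of each other at D0 and D8, with the frame-shifting kind lower at D4; the difference was not tested. When libraries were scaled by their totals without TMM factors, the median of all genes moved to -0.03, 0.07 and -0.12. The split of called member genes then became 619 higher and 694 lower at D0, 457 higher and 135 lower at D4, and 542 higher and 945 lower at D8. The balance of directions thus depends on the scaling on each day, and at D0 and D8 it turned.

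**Figure D1:**
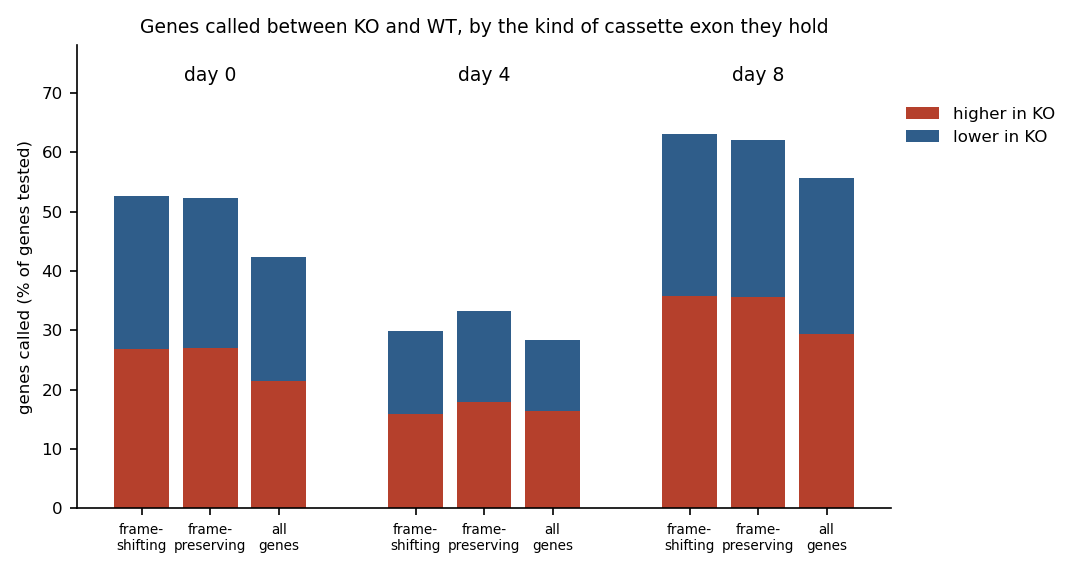
Bars give the percentage of tested genes called between KO and WT (edgeR adjusted p under 0.05) at days 0, 4 and 8, for genes with a frame-shifting member, genes with a frame-preserving cassette exon that met the other conditions, and all genes; red is higher in KO and blue lower in KO. Frame-shifting and frame-preserving bars stand at 52.7% and 52.2% at day 0, 29.9% and 33.3% at day 4, and 63.0% and 62.0% at day 8.

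Inclusion itself differed between arms for a minority of members. An event was called at the authors' deposited FDR under 0.05 and a difference of at least 0.1. At D0, 568 members were called, 302 with higher and 266 with lower inclusion in the second arm; among all events with the same reads 2.09% were called (0.924% higher and 1.16% lower), and 13.5% where the first arm also lay from 0.1 to 0.9. At D4, 120 were called (77 higher, 43 lower; backgrounds 0.917%, of which 0.468% higher and 0.449% lower, and 5.79%) and at D8, 424 (234 higher, 190 lower; backgrounds 2.02%, of which 1.09% higher and 0.929% lower, and 14.2%). The rule used these contrasts, and nothing is read from these counts. Frame-shifting members were called at 11.9%, 3.49% and 10.0% on the 3 days and frame-preserving ones in 533 of 3558, 219 of 2669 and 612 of 3373 events. Median exon length was 118 bases at D0, 116 at D4 and 118 at D8, with a range of 28 to 4414 bases over the days. Median inclusion at D0 was 0.67 in both arms.

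Knowing only that a frame-shifting exon was more or less included said little of its gene. Across all members, the inclusion difference and the gene log2 fold change had Pearson r = 0.03 at D0, 0.03 at D4 and 0.04 at D8 (4747, 3422 and 4215 events). Of the 460 genes with a called event at D0, 219 (47.6%) had a called change with no overlap between the genotypes' libraries and a mean of at least 5 CPM. By the same conditions 46.7% of all member genes and 27.1% of all genes tested were called. In 44 of the 460 the 95% interval of the gene log2 fold change lay within -0.2 to 0.2. At D4, 40 of 103 such genes were called without overlap (38.8%, against 28.6% of member genes and 19.6% of all genes), and 12 lay within that interval. At D8, 190 of 323 were called without overlap (58.8%, against 54.9% of member genes and 34.1% of all genes), and 30 lay within it. These differences in share were not tested.

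The stop-class members were then sorted by which form carries the premature stop. The measure used below is the change in the share of the form without a premature stop, second minus first arm; it equals the inclusion difference where skipping gives the stop, and its negative where inclusion does. At D0, 52 genes had a called event with a higher share of the form without a stop: 25 rose in KO, 3 fell and 24 were not called, with a median log2 fold change of 0.16. In 26 genes the share was lower: 11 fell, 8 rose and 7 were not called, with a median of -0.07. The background over all genes is 21.4% higher and 20.9% lower in KO. In 557 genes with stop-class members that were not called, 157 rose and 144 fell, and the median was -0.01.

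On the later days the sets lay closer to the background or were small. At D4, 2 of 18 genes with a higher share rose and 2 fell, with a median of 0.07; 4 of 9 genes with a lower share fell and 0 rose, with a median of -0.21 (backgrounds 16.3% higher and 12.0% lower). At D8, 21 of 48 genes with a higher share rose in the libraries labelled KO and 15 fell, with a median of 0.17 (backgrounds 29.4% higher and 26.2% lower). In 29 genes with a lower share, 10 fell and 7 rose, with a median of -0.03. Among genes with stop-class members that were not called, 104 of 709 rose and 100 fell at D4. At D8, 221 of 623 such genes rose and 178 fell. With libraries scaled by totals, 17 of the 48 genes rose at D8 and 18 fell. The difference between days was not tested.

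Across stop-class events with a tested gene, the change in share and the gene log2 fold change had Pearson r = 0.26 at D0 (714 events), 0.09 at D4 (853) and 0.18 at D8 (797), with Spearman coefficients of 0.17, 0.09 and 0.14. Among the called ones r was 0.59 (85 events), 0.48 (28) and 0.29 (83), and the Spearman coefficients were 0.31, 0.49 and 0.35, so by rank D0 was not the day of the closest relation. These are descriptions across events that share libraries, and both measures come from the same reads.

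**Figure D2:**
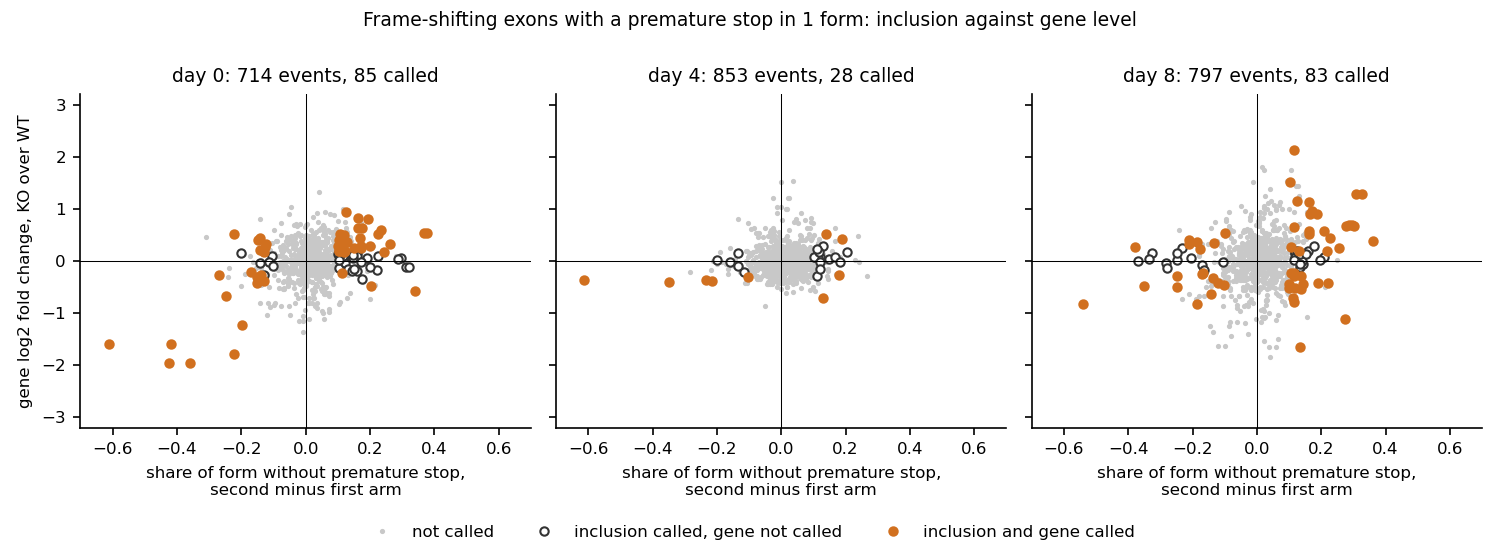
Each point is a stop-class event: the x axis gives the share of the form without a premature stop, second minus first arm, and the y axis the gene log2 fold change, KO over WT, at days 0, 4 and 8; grey points were not called, open circles had called inclusion alone, and orange circles had both called. Among the called points Pearson r is 0.59 at day 0 and 0.29 at day 8, while the Spearman coefficients are 0.31 and 0.35, and on both days the points lie on both sides of 0 on either axis.

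Both stop classes contributed at D0, though not in each direction of inclusion. Among genes whose exon gives a stop when skipped, 11 of 24 with higher inclusion rose and 0 fell, whereas 9 of 20 with lower inclusion fell and 4 rose. Among genes whose poison exon gives a stop when included, 14 of 28 with lower inclusion rose and 3 fell. Of the 6 genes with higher inclusion of a poison exon, 4 rose, against the stop, and 2 fell, with a median of 0.18. At D8 the numbers with higher inclusion of an exon that gives a stop when skipped were 14 higher and 10 lower of 31, and those with lower inclusion of a poison exon 7 higher and 5 lower of 17. With lower inclusion of an exon that gives a stop when skipped, 2 of 12 rose and 2 fell. With higher inclusion of a poison exon, 5 of 17 rose and 8 fell. For exons in the 5′ untranslated region or holding the start codon, medians at D0 were -0.04 with higher inclusion (57 genes) and 0.03 with lower inclusion (49 genes). For exons with both forms coding they were 0.02 (20 genes) and 0.07 (15 genes).

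SRSF6 had the lower inclusion of its poison exon and the higher gene level at D0. Inclusion was 0.205, 0.191 and 0.143 in the second arm, against 0.68, 0.545 and 0.45 in the first. Its gene level was 158, 169 and 173 CPM in KO, against 119, 111 and 115 in WT. The poison exon was lower in every library of the second arm and the gene rose in KO, by a log2 fold change of 0.54 (SE 0.07, adjusted p = 6.2e-06). At D4 the exon was at 0.226, 0.18 and 0.227 in the second arm, against 0.179, 0.182 and 0.14 in the first, and the arms overlapped. The gene log2 fold change at D4 was -0.12 (adjusted p = 0.24). At D8 inclusion was 0.15, 0.128 and 0.149 in the second arm, against 0.301, 0.177 and 0.24 in the first, and the gene log2 fold change was 0.16 (adjusted p = 0.061).

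The low gene changes beside a called stop-class exon at D0 included those of PFKFB4, RAB25 and C4orf47. PFKFB4, which makes and breaks down fructose 2,6-bisphosphate, has a 76-base exon with a stop on inclusion. It was included at 0.403, 0.473 and 0.415 in the second arm, against 0.226, 0.195 and 0.198 in the first. Gene counts were 20.3, 15.02 and 14.8 CPM in KO, against 53.4, 58.6 and 60.4 in WT. The stop form was the more frequent in every library of the second arm, and the gene fell in KO by 1.78 on the log2 scale (SE 0.10, adjusted p = 5.6e-11).

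RAB25, a small GTPase of epithelial membrane recycling, has a 196-base exon with a stop when skipped. It was included at 0.558, 0.587 and 0.534 in the second arm, against 0.759, 0.763 and 0.75 in the first. The gene stood at 22.8, 23.1 and 24.4 CPM in KO, against 51.0, 54.4 and 59.8 in WT, and fell by 1.23 on the log2 scale (adjusted p = 2.0e-10). C4orf47 fell by 1.96 (adjusted p = 6.9e-08), with its 76-base exon at 0.422, 0.594 and 0.367 in the second arm, against 0.874, 0.939 and 0.842 in the first. In both genes the arms and the genotypes stood apart without overlap. C4orf47 is a low-count gene, at 1.80, 1.53 and 1.85 CPM in KO, against 6.13, 6.17 and 7.85 in WT.

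PFKFB4 did not keep the relation at D8. Its exon was at 0.269, 0.483 and 0.434 in the second arm, against 0.124, 0.172 and 0.056 in the first, about as far apart as at D0. Its gene level was 10.4, 11.4 and 10.4 CPM in the libraries labelled KO, against 12.2, 12.3 and 11.04 in WT (log2 fold change -0.14, adjusted p = 0.26). The inclusion difference was again clear of the spread, and the gene was not called.

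CLK1 and CLK4 showed a large change of inclusion beside a flat gene level at D8. The CLK1 exon was included at 0.278, 0.231 and 0.255 in the second arm, against 0.54, 0.527 and 0.541 in the first. The CLK4 exon was included at 0.416, 0.381 and 0.387 in the second arm, against 0.762, 0.69 and 0.736 in the first. Both near-identical exons were lower in every library of the second arm, which raises the share of the form whose shifted frame ends in the TAG printed above.

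CLK1 stood at 87.7, 89.4 and 93.9 CPM in the libraries labelled KO at D8, against 88.7, 88.4 and 101 in WT, with a log2 fold change of -0.04 (95% interval -0.16 to 0.09). CLK4 stood at 24.4, 25.1 and 26.8 CPM in the libraries labelled KO, against 25.5, 23.8 and 25.4 in WT, with a log2 fold change of 0.03 (95% interval -0.11 to 0.17). The genotypes overlapped for both genes. With libraries scaled by totals, CLK1 was called lower by 0.17 (adjusted p = 0.030). At D0 and D4 the arms overlapped for both exons. CLK1 inclusion had a mean of 0.71 in second-arm libraries and 0.72 in first-arm libraries at D0, and 0.31 and 0.32 at D4; CLK4 averaged 0.86 and 0.89 at D0, and 0.37 and 0.41 at D4. CLK4 fell in KO at D0 with little difference in this exon: 14.5, 15.4 and 15.7 CPM in KO, against 23.0, 22.5 and 25.7 in WT (log2 fold change -0.64, adjusted p = 3.9e-07).

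PTBP2 had its exon called on 1 day and its gene changed most on another. At D8 the 34-base exon was included at 0.907, 0.882 and 0.923 in the second arm, against 0.805, 0.777 and 0.737 in the first. Gene counts were 73.5, 71.9 and 72.7 CPM in the libraries labelled KO, against 67.7, 60.7 and 63.4 in WT, a log2 fold change of 0.19 (adjusted p = 0.016). Without WT replicate 3 that call was lost (0.15, adjusted p = 0.085), as it was with total scaling (0.05). The larger gene change was at D0, where PTBP2 rose to 74.5, 80.7 and 80.6 CPM in KO, against 50.9, 50.02 and 56.0 in WT (0.59, adjusted p = 3.2e-07). There the exon stood at 0.87, 0.915 and 0.852 in the second arm, against 0.859, 0.843 and 0.81 in the first, and the arms overlapped.

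**Figure D3:**
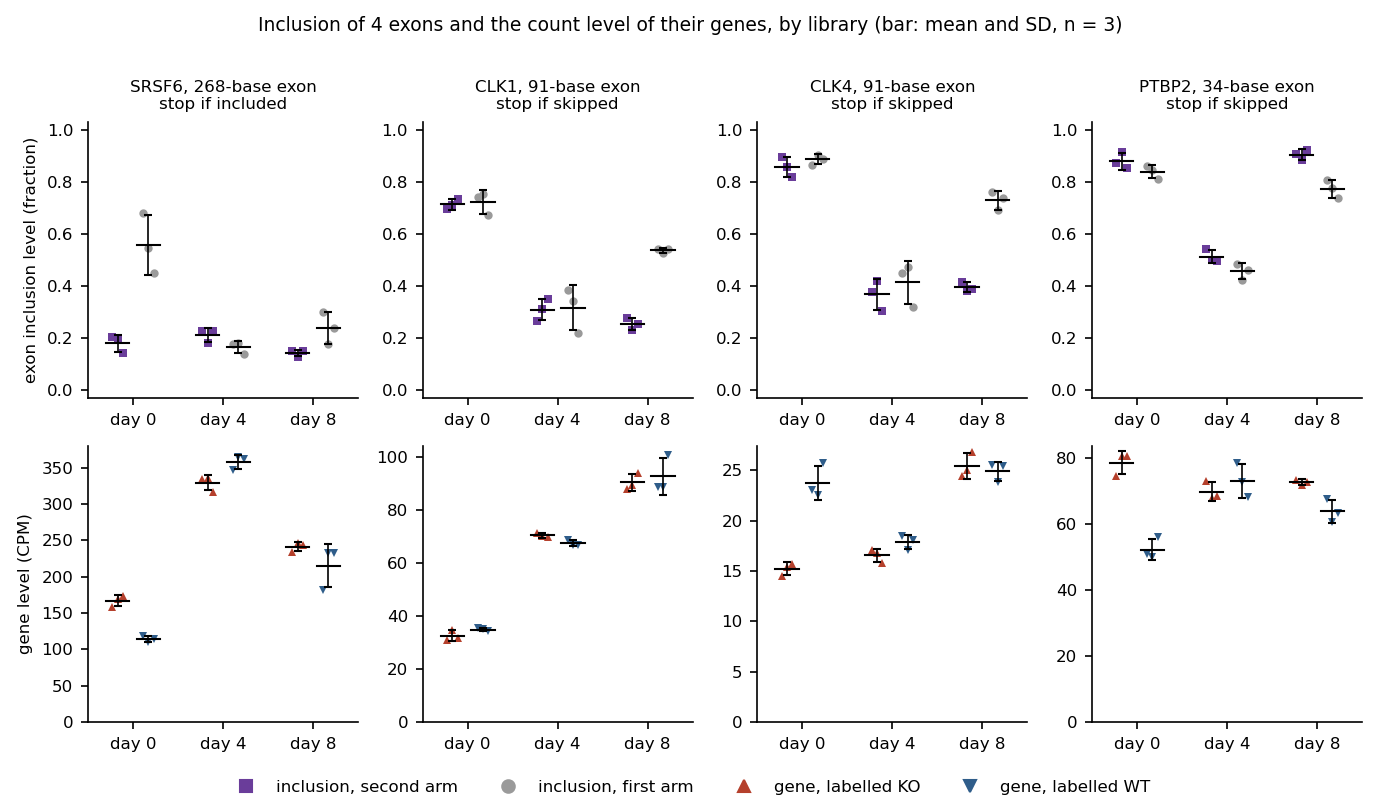
The upper row gives the inclusion level of 4 exons per library, second arm (purple) left of first arm (grey), and the lower row the level of the same genes in CPM, labelled KO (red) left of WT (blue), at days 0, 4 and 8; bars are mean and SD of 3 libraries. SRSF6 differs in both rows at day 0, and CLK1 and CLK4 differ in inclusion at day 8 with overlapping gene levels.

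At D8 the highest gene change among genes with a called stop-class exon was that of CPNE5, a calcium-dependent phospholipid-binding copine. Its 62-base exon was included at 0.938, 0.976 and 0.951 in the second arm, against 0.805, 0.889 and 0.827 in the first. The count level was 44.1, 61.2 and 74.8 CPM in the libraries labelled KO, against 16.3, 16.3 and 8.75 in WT, and rose by 2.12 on the log2 scale (SE 0.19, adjusted p = 6.4e-09). LGI4, a secreted protein of the peripheral nerve, rose by 1.52 (SE 0.19, adjusted p = 1.1e-06), with its poison exon at 0.069, 0.018 and 0.031 in the second arm, against 0.097, 0.182 and 0.152 in the first. Both changes of inclusion are close to the threshold of 0.1, while the gene changes are over 2-fold.

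Other D8 genes ran against the stop. ADAM28, a membrane metalloprotease, fell by 1.66 on the log2 scale (adjusted p = 8.5e-11) although its 77-base exon, which gives a stop when skipped, was at 0.922, 0.941 and 0.926 in the second arm, against 0.729, 0.805 and 0.851 in the first. SLC25A29, a mitochondrial carrier of basic amino acids, has a 368-base poison exon at 0.396, 0.252 and 0.15 in the second arm, against 0.498, 0.561 and 0.565 in the first. The gene nevertheless fell, to 47.1, 42.3 and 46.3 CPM in the libraries labelled KO, against 77.8, 98.7 and 118 in WT (log2 fold change -1.12, adjusted p = 3.7e-07). At D4, SLCO1A2, an organic anion transporter, fell by 0.71 (adjusted p = 1.9e-05) with higher inclusion of an exon that gives a stop when skipped (1, 1 and 0.944 in the second arm, against 0.878, 0.793 and 0.885 in the first).

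ZNF142, a zinc-finger protein, had a poison exon at 0.473, 0.672 and 0.719 in the second arm at D8, against 0.298, 0.252 and 0.209 in the first. Its gene stood at 26.8, 26.6 and 28.0 CPM in the libraries labelled KO, against 24.9, 27.5 and 29.1 in WT, with a 95% interval of the log2 fold change from -0.20 to 0.19. The exon's arms did not overlap and the gene's genotypes did. ST7 at D4, by contrast, rose by 0.52 (adjusted p = 0.00055) with its exon at 1, 0.969 and 0.94 in the second arm, against 0.97, 0.745 and 0.78 in the first, which overlapped.

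Several stop-class genes outside the rule for named genes, chosen after their values were seen, show the same range. PRR3, a proline-rich protein, has a 181-base poison exon called at D0 and D8. At D8 it was included at 0.193, 0.189 and 0.263 in the second arm, against 0.521, 0.512 and 0.516 in the first, and the gene stood at 22.5, 22.6 and 25.7 CPM in the libraries labelled KO, against 14.7, 14.8 and 15.1 in WT. The poison exon was the lower and the gene rose, by 0.66 at D8 (adjusted p = 3.1e-07) and 0.32 at D0 (adjusted p = 0.0035).

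TYK2, a JAK-family kinase, rose by 0.69 at D8 (adjusted p = 5.0e-08) with its 119-base exon at 0.945, 0.924 and 0.969 in the second arm, against 0.825, 0.517 and 0.607 in the first. NAPB, a SNAP protein of membrane fusion, rose by 0.38 at D8 (adjusted p = 2.2e-05) with its 47-base exon at 0.857, 0.964 and 0.93 in the second arm, against 0.625, 0.519 and 0.519 in the first. CAPN7, a calpain protease, was not called at D0 (-0.12, adjusted p = 0.14) with its 146-base exon at 0.927, 0.859 and 0.932 in the second arm, against 0.602, 0.551 and 0.605 in the first. In these 3 genes the exon gives a stop when skipped and its arms did not overlap.

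RABGAP1L rose at D8 by 0.26 (adjusted p = 0.015) although its poison exon was the higher in the second arm, at 0.561, 0.618 and 0.81, against 0.149, 0.46 and 0.243 in the first. CDCA7, a partner of the chromatin remodeller HELLS, had a 149-base poison exon that was higher in the second arm on all 3 days, by 0.13, 0.10 and 0.25. The gene log2 fold change was 0.18 at D0, -0.31 at D4 and -0.49 at D8 (adjusted p = 0.013, 0.00021 and 3.0e-07), so the gene turned while the exon kept its direction.

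Few stop-class differences were called on more than 1 day: of 174 stop-class events called on any day, 156 were called on 1 day, 14 on 2 days and 4 on 3 days. Of the 18 called on more than 1 day, 14 kept their direction. An event could be called only on a day on which it was a member, and of all 7275 members 3839 were members on 1 day and 1735 on all 3 days.

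Genes of the splicing and NMD machinery were examined as lists, since many of them hold poison exons. Of 16 SR protein genes tested, 6 rose and 1 fell in KO at D0, 0 rose and 3 fell at D4, and 1 rose and 6 fell at D8 in the libraries labelled KO (median log2 fold change 0.04, -0.10 and -0.12, against -0.01, -0.00 and 0.01 over all genes). Over all genes 21.4% were called higher and 20.9% lower at D0, 16.3% and 12.0% at D4, and 29.4% and 26.2% at D8. With library totals, 6 SR genes rose and 1 fell at D0, 2 rose and 1 fell at D4, and 1 rose and 9 fell at D8, so their balance at D4 depends on the scaling. SRSF6 and SRSF11 at D0, and SRSF11 at D8, had called members. SRSF11 has a 109-base exon that turned between days. At D0 it stood at 0.126, 0.091 and 0.181 in the second arm, against 0.319, 0.266 and 0.311 in the first, with a gene log2 fold change of 0.01. At D8 it stood at 0.316, 0.413 and 0.302 in the second arm, against 0.17, 0.189 and 0.16 in the first. The SRSF11 gene fell at D8, to 185, 156 and 144 CPM in the libraries labelled KO, against 226, 227 and 244 in WT (log2 fold change -0.52, adjusted p = 5.7e-06).

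Of 24 hnRNP and PTB protein genes tested, 13 rose and 3 fell at D0, 0 rose and 6 fell at D4, and 1 rose and 11 fell at D8, with medians of 0.21, -0.12 and -0.10, against -0.01, -0.00 and 0.01 over all genes (called higher and lower: 21.4% and 20.9% at D0, 16.3% and 12.0% at D4, 29.4% and 26.2% at D8). With library totals 13 rose and 3 fell at D0, 0 rose and 2 fell at D4, and 0 rose and 15 fell at D8. Few of them had called members: HNRNPA2B1 at D0, whose 136-base exon had a mean of 0.77 in second-arm libraries and 0.88 in first-arm libraries, with a gene log2 fold change of 0.07 (adjusted p = 0.47), and PTBP2 at D8. Of 9 CLK and SRPK kinase genes tested, 3 rose and 3 fell at D0, 1 rose and 1 fell at D4, and 3 rose and 2 fell at D8, which turned to 2 higher and 3 lower with library totals. In SRPK2, a kinase of SR proteins, a 64-base exon with both forms coding was included at 0.337, 0.31 and 0.279 in the second arm at D8, against 0.107, 0.134 and 0.142 in the first. Its gene log2 fold change was 0.19 (adjusted p = 0.040), a call that was lost without WT replicate 4 (0.13, adjusted p = 0.20) and under 7 further alternatives.

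Of 22 NMD and exon junction factor genes, 11 rose and 2 fell at D0, 0 rose and 6 fell at D4, and 9 rose and 6 fell at D8, beside 21.4% higher and 20.9% lower of all genes at D0, 16.3% and 12.0% at D4, and 29.4% and 26.2% at D8. Their medians were 0.14, -0.14 and 0.03. With library totals the D8 split turned to 3 higher and 9 lower. UPF3A held their only called members, at D0: its 107-base exon was included at 0.81, 0.793 and 0.807 in the second arm, against 0.636, 0.684 and 0.652 in the first, and its 142-base exon at 0.558, 0.55 and 0.538 in the second arm, against 0.469, 0.407 and 0.38 in the first. The gene stood at 73.0, 73.9 and 72.1 CPM in KO, against 69.5, 66.3 and 67.3 in WT, a log2 fold change of 0.11 (adjusted p = 0.10). The arms of both exons and the genotypes' counts stood apart, and the gene was not called; DESeq2 called it (0.12, adjusted p = 0.020). Of 20 genes known to give NMD-sensitive transcripts, 5 rose and 7 fell at D0, 5 rose and 1 fell at D4, and 3 rose and 5 fell at D8, with medians of 0.07, 0.16 and -0.05; with library totals 10 rose and 1 fell at D4, and 2 rose and 8 fell at D8.

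Among 28 other splicing factor genes tested, 9 rose and 5 fell at D0. At D4, 3 rose and 5 fell, and at D8, 6 rose and 9 fell. Over all genes 21.4% were called higher and 20.9% lower at D0, 16.3% and 12.0% at D4, and 29.4% and 26.2% at D8. The medians of these splicing factor genes were 0.02, -0.07 and -0.02, against -0.01, -0.00 and 0.01 over all genes. With library totals 3 rose and 2 fell at D4, and 4 rose and 14 fell at D8. TIAL1, an RNA-binding splicing regulator, had a 68-base poison exon at 0.349, 0.37 and 0.264 in the second arm at D8, against 0.217, 0.194 and 0.16 in the first. TIAL1 fell to 52.2, 51.2 and 51.9 CPM in the libraries labelled KO, against 64.0, 63.5 and 68.5 in WT (-0.34, adjusted p = 5.5e-05). The poison exon was the higher and the gene the lower, without overlap.

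RBFOX2, a splicing regulator of heart and brain, carries a 43-base muscle exon and a 40-base exon that are used as alternatives to each other. Each counts as frame-shifting taken alone, while exchanging the pair changes the length by a multiple of 3. At D8 the 43-base exon was included at 0.209, 0.267 and 0.294 in the second arm, against 0.823, 0.781 and 0.726 in the first. The 40-base exon was included at 0.904, 0.908 and 0.926 in the second arm, against 0.735, 0.724 and 0.725 in the first. The muscle exon was the lower in each of its 3 called events and its alternative the higher in both of its own, and the gene rose to 813, 871 and 820 CPM in the libraries labelled KO, against 499, 470 and 401 in WT (0.87, adjusted p = 7.3e-10). In RBFOX1, a related regulator, a 43-base exon was at 0.647, 0.359 and 0.577 in the second arm at D8, against 0.856, 0.856 and 0.706 in the first, and the gene rose by 1.72 (adjusted p = 1.9e-09); another event of a 43-base exon of RBFOX1, with other neighbours, was not called.

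Altogether, 21 events in 18 genes were called on all 3 days, 17 of them in 1 direction. Of these 2 gave a stop when skipped, 2 a stop when included, 7 gave no premature stop in either form, 3 lay in the 5′ untranslated region or held the start codon, 1 had both forms coding, 1 matched no complete coding transcript and 5 were not placed. ARHGAP17 encodes a GTPase-activating protein of cell junctions. At D0 its 49-base exon was included at 0.024, 0.018 and 0.04 in the second arm, against 0.578, 0.617 and 0.693 in the first. Gene counts were 48.2, 43.0 and 46.7 CPM in KO, against 31.0, 33.2 and 26.99 in WT. The exon was nearly skipped in the second arm, and the gene rose by 0.60 (SE 0.07, adjusted p = 4.4e-07).

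At D4 the ARHGAP17 exon was at 0.038, 0.032 and 0.017 in the second arm, against 0.56, 0.538 and 0.685 in the first, nearly the same as at D0. The count level was 40.4, 42.2 and 43.3 CPM in KO, against 42.0, 41.9 and 42.9 in WT, with a 95% interval of the log2 fold change from -0.15 to 0.13. The genotypes overlapped at D4, unlike at D0. At D8 the exon was at 0.238, 0.313 and 0.315 in the second arm, against 0.583, 0.672 and 0.747 in the first, and the gene rose by 0.32 (adjusted p = 0.00030).

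PLEKHA1, an adaptor that binds phosphoinositides, had a 41-base and a 145-base exon that were both lower in the second arm. These are forms of 1 exon with the same start and the same neighbours, so they do not count as separate exons that moved alike. The 41-base exon differed by -0.33 at D0, -0.38 at D4 and -0.43 at D8, and the 145-base exon by -0.17, -0.36 and -0.35. The gene fell by 0.44 at D0 (adjusted p = 4.6e-05) and 0.25 at D8 (adjusted p = 0.0041). At D4 it was not called, with an interval from -0.17 to 0.13.

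ZNF267, a zinc-finger protein, had its 44-base exon at 0.04, 0.005 and 0.031 in the second arm at D0, against 0.168, 0.195 and 0.209 in the first, and the difference reached -0.35 at D4 and -0.44 at D8. The gene fell on each day, by 0.51, 0.82 and 0.70 (adjusted p = 0.00042, 7.7e-06 and 1.1e-05). Its exon and its gene moved in the same direction on the 3 days.

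OSBPL8, a lipid-transfer protein, had its 37-base exon higher by 0.38, 0.42 and 0.56, and SEPT6, a septin, its 62-base exon by 0.24, 0.49 and 0.43. Their genes stayed within 0.4 of 0 on the log2 scale on each day. OSBPL8 was called lower at D4 (-0.35) and D8 (-0.33), but not at D4 without KO replicate 2 (-0.25, adjusted p = 0.11) nor at D8 without KO replicate 4 (-0.23, adjusted p = 0.072). SEPT6 at D8 (-0.15) lost its call without KO replicate 1 (-0.12, adjusted p = 0.14) and under 5 further alternatives.

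DLG1, a scaffold of cell junctions, had differences of -0.30, -0.39 and -0.36 in its 100-base exon. Its gene log2 fold change was -0.23 at D0 (adjusted p = 0.0018), -0.16 at D4 (adjusted p = 0.036, lost when any of 5 libraries was left out) and 0.04 at D8 (95% interval -0.08 to 0.15). PRMT2, an arginine methyltransferase, had its 109-base exon, in the untranslated leader or at the start codon, at 0.152, 0.113 and 0.11 in the second arm at D8, against 0.705, 0.694 and 0.663 in the first. Its gene stood at 103, 114 and 116 CPM in the libraries labelled KO, against 98.3, 106 and 98.8 in WT, which overlapped. The log2 fold change of 0.13 (adjusted p = 0.041) lost its call without KO replicate 4 (0.11, adjusted p = 0.16) and under 5 further alternatives, and was 0.00 with library totals. LPHN2, an adhesion receptor, had its 82-base exon at 0.019, 0.019 and 0.011 in the second arm at D8, against 0.675, 0.545 and 0.564 in the first, and its gene fell by 0.30 (adjusted p = 0.0017).

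ZNF711 and SLC25A29 changed at the gene level late. ZNF711, a zinc-finger protein linked to X-linked intellectual disability, had its 254-base leader exon lower in the second arm at D0 (-0.31), D4 (-0.13) and D8 (-0.39). Its gene level was 50.7, 54.8 and 47.0 CPM in KO at D0, against 52.2, 45.5 and 44.7 in WT, and at 44.9, 39.0 and 32.1 CPM in the libraries labelled KO at D8, against 110, 108 and 123 in WT. The genotypes overlapped at D0 and stood apart at D8, where the log2 fold change was -1.56 (adjusted p = 2.7e-11). The SLC25A29 exons of 31 and 368 bases, forms of 1 exon that share an edge and both neighbours, turned direction at D4. They were then higher in the second arm by 0.27 and 0.20. FRG1B was called higher at D4 and D8 by 1.35 and 1.49; it has near-identical relatives, and its counts are uncertain.

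**Figure D4:**
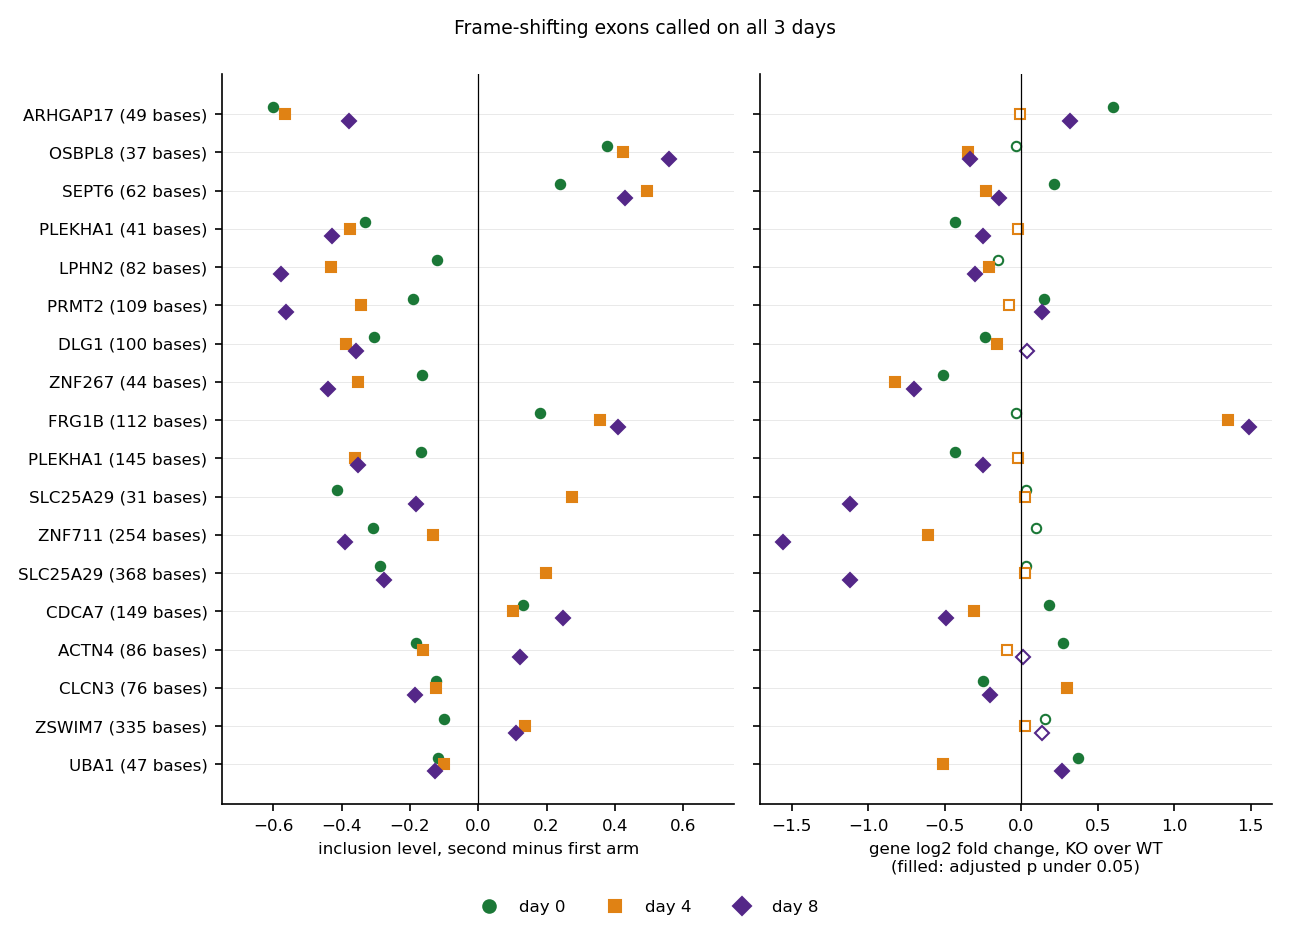
For 18 of the 21 events called on all 3 days, the left panel gives the inclusion difference, second minus first arm, and the right panel the gene log2 fold change, KO over WT, at day 0 (circles), day 4 (squares) and day 8 (diamonds); filled symbols on the right mark an adjusted p under 0.05. On the left 14 of the 18 events keep to 1 side of 0, while on the right the genes lie on both sides, from -1.56 for ZNF711 to 1.49 for FRG1B.

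The widest inclusion differences at D8 came from exons outside the stop classes. GPR126, an adhesion receptor needed for heart and nerve development in mice, had its 46-base exon at 0.885, 0.91 and 0.896 in the second arm, against 0.151, 0.104 and 0.125 in the first. Its gene stood at 157, 126 and 106 CPM in the libraries labelled KO, against 130, 109 and 107 in WT (0.17, adjusted p = 0.19). The exon was almost exchanged between arms while the gene's genotypes overlapped; without KO replicate 4 the gene was called (0.30, adjusted p = 0.022).

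ATP5C1, the gamma subunit of mitochondrial ATP synthase, has a 37-base exon that muscle is known to skip. It was included at 0.925, 0.936 and 0.956 in the second arm, against 0.242, 0.35 and 0.396 in the first, and the gene rose by 0.74 (adjusted p = 3.3e-07). SORBS2, a Z-disc adaptor protein, had its 89-base exon at 0.918, 0.926 and 0.929 in the second arm, against 0.23, 0.239 and 0.284 in the first, and rose by 1.06 (adjusted p = 1.7e-08). ATP2B4, a plasma membrane calcium pump, had its 178-base exon at 0.761, 0.862 and 0.829 in the second arm, against 0.322, 0.239 and 0.134 in the first, and fell by 0.53 (adjusted p = 8.3e-06). Exons of these 3 genes were all higher in the second arm, and 2 of the genes rose and 1 fell.

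Among exons outside the stop classes at D0, a change of inclusion stood beside a flat gene in NSRP1 and beside a changed one in TPM1 and P4HA1. NSRP1, a splicing regulator, had its 94-base exon at 0.756, 0.768 and 0.764 in the second arm, against 0.505, 0.442 and 0.435 in the first, with 34.4, 31.5 and 36.2 CPM in KO, against 34.9, 31.9 and 32.5 in WT. The 95% interval of its log2 fold change ran from -0.11 to 0.19. TPM1, a tropomyosin of the actin filament, had its 76-base exon at 0.016, 0.016 and 0.012 in the second arm at D0, against 0.128, 0.138 and 0.137 in the first. Of 3 further called TPM1 events at D0, that of another 76-base exon was higher in the second arm by 0.45, and those of a 79-base and a 127-base exon differed by -0.44 and -0.27. TPM1 stood at 301, 294 and 319 CPM in KO, against 154, 154 and 156 in WT, and rose by 0.98 (adjusted p = 1.2e-08). P4HA1, a collagen prolyl hydroxylase, fell by 1.31 (adjusted p = 6.0e-09) with its 71-base exon at 0.596, 0.56 and 0.511 in the second arm, against 0.715, 0.758 and 0.742 in the first.

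In 293T cells, whose libraries the rule did not use, 3499 members were measured with at least 10 junction reads in each arm. By the authors' FDR and a difference of at least 0.1, 44 were called (1.26%; background 0.446% of all events with the same reads, 0.273% higher and 0.173% lower), 25 higher and 19 lower in the second arm. That background was not restricted to intermediate inclusion, by which the members were chosen, so the member share is not read against it. Frame-preserving exons that met the other conditions were called in 74 of 2774 (2.67%). Of 541 measured members that were called on a differentiation day, 14 were called in 293T cells, and 13 of them in the same direction.

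ARHGAP17 stood at 0.138, 0.074 and 0.164 in the second arm, against 0.32, 0.238 and 0.407 in the first (FDR 0.0023). The arms did not overlap. PLEKHA1's 41-base exon stood at 0.063, 0.032 and 0.101 in the second arm, against 0.183, 0.289 and 0.375 in the first (FDR 0.00037), the direction seen on the 3 days. ACSL4, an acyl-CoA synthetase for arachidonic acid, had its 53-base exon at 0.582, 0.596 and 0.518 in the second arm, against 0.816, 0.903 and 0.875 in the first (FDR 0.0013). The same exon with other neighbours was also called in 293T cells (-0.23). At D0 the first of these events was lower by 0.34 in the second arm and the other differed by -0.0023 and was not called; the gene was not called either (-0.08, adjusted p = 0.54).

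NDEL1, a dynein partner in nuclear movement, had its 35-base exon at 0.069, 0.022 and 0.028 in the second arm, against 0.322, 0.18 and 0.288 in the first (FDR 1.9e-08), and it was lower at D8 as well (-0.26). CSNK1D, a casein kinase, had its 64-base exon at 0.896, 0.887 and 0.919 in the second arm, against 0.771, 0.819 and 0.694 in the first (FDR 1.3e-05). EEF1D, a translation elongation factor subunit, had its 128-base leader exon at 0.106, 0.086 and 0.099 in the second arm, against 0.683, 0.729 and 0.35 in the first (FDR 2.3e-05). That event had a mean of 14.3 junction reads in the first arm, against 121.7 in the second. Other called EEF1D events went both ways: a 131-base exon differed by -0.47, and exons of 122, 296 and 247 bases by 0.11, 0.12 and 0.10. The exons of 128, 131 and 122 bases share an edge, as do those of 296 and 247 bases, so they are not all separate exons. For the exons of NDEL1, CSNK1D and EEF1D given by library, the arms stood apart. MPV17, a mitochondrial inner membrane protein, was the exception in direction, with its 161-base exon higher in the second arm in 293T cells (0.21) and lower at D0 (-0.14). The 91-base exons of CLK1 and CLK4 were not called in 293T cells. CLK1 had a mean of 0.38 in second-arm libraries and 0.49 in first-arm libraries, and CLK4 0.52 and 0.50.

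Nuclear RNA at D8 gave gene levels that the rule did not use. Of 2433 D8 member genes, 2402 were tested in both fractions; 1823 (75.9%) were called in nuclear RNA, 1670 higher and 153 lower where the label is KO, against a background of 64.0% of all genes, 31.2% higher and 32.8% lower. The median nuclear log2 fold change was 0.62 for member genes and -0.27 for all genes tested. With scaling by totals the split was 919 higher and 409 lower and the median of all genes -0.72, so the direction in nuclear RNA is relative to the scaling. Of 1172 genes called in both fractions, 755 had the same sign.

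In nuclear RNA both stop-class sets had positive medians. The 48 genes with a higher share of the form without a stop had a median of 0.84, and the 29 with a lower share 0.62. In whole-cell RNA the medians of the same sets were 0.17 and -0.03. The gap between the sets was not tested in either fraction, nor compared between the fractions. CLK1 stood at 161, 183 and 175 CPM in nuclear libraries labelled KO, against 92.3, 73.3 and 72.6 in WT, a log2 fold change of 1.12 (adjusted p = 1.0e-07). CLK4 stood at 58.7, 68.5 and 70.2 CPM in nuclear libraries labelled KO, against 34.6, 28.2 and 27.1 in WT, a log2 fold change of 1.13 (adjusted p = 2.8e-08). Both genes were above the member median in nuclear RNA and flat in whole-cell RNA. SLC25A29 rose by 0.67 in nuclear RNA (adjusted p = 6.6e-05) and fell in whole-cell RNA. The fractions differ in library preparation and depth, and their difference was not tested.

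Some events lay close to the thresholds of the rule. At D0, HHLA3 entered with a first-arm inclusion of 0.10, PPP2R3C entered with 0.90, and PUS1 stayed out just above. PIK3AP1 entered with a mean of 20 reads, and CCNY stayed out with 19.7. At D8, PARGP1 entered with 20 reads and MRVI1 stayed out with 19.7.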

How the data were processed

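RNA was measured by poly(A) and nuclear RNA sequencing. The deposited gene tables hold raw counts per gene that the authors made with the tools their submitters' processing notes list (cutadapt, UMI-tools, STAR, featureCounts and DESeq, with build hg19); the sources used here do not say which tool made which file. The deposited rMATS tables hold the authors' junction read counts, inclusion levels, p-values with FDR, and inclusion differences (a score, first minus second arm as its values show, turned round here). Levels of different days come from separate tables.

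Genes were tested with edgeR 4.0.16 (R 4.3.3; TMM, filterByExpr, quasi-likelihood, 1 fit over 18 whole-cell libraries and 1 over 6 nuclear libraries), with Benjamini-Hochberg adjustment over all 21761 or 30481 genes tested. Gene counts and junction reads come from the same libraries. On simulated counts at D0, with 21461 genes, the fit recovered 84% of 1.5-fold and 94% of 2-fold changes; in the nuclear fit, with 29469 genes, 24% and 69%. Tables were joined with pandas 2.3.3.

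Genes were named by rule: QKI; per day the 5 highest and 5 lowest inclusion differences, the 5 highest and 5 lowest gene changes (at least 5 CPM, no overlap) and the 5 largest differences with a flat gene; events called on all days or in 293T cells (up to 15 each); called members of the SR, hnRNP, kinase and NMD lists; and threshold neighbours. Genes with values outside this rule were chosen after their values were seen: TIAL1, RBFOX2 and PFKFB4 at D8 among them, besides those so described in the text. The members, lists and classes were chosen with earlier results of these data known. Alternatives were DESeq2 1.42.0, library totals, no filter, single-day fits, a replicate block, other thresholds and each library left out. Results for some genes are not reported here. Exon sequence features around the splice sites were not analysed here.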

Additional observations from a re-analysis of the deposited data

Results flagged for a closer look

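In 8 of the 11 genes compared for an exon called on all 3 days, the gene-level difference between KO and WT changed between days by edgeR's interaction term, adjusted over all genes. The share of all genes called by that term is not given here, so the count is not read as a trait of these genes. The CHIR dose differed between genotypes at D4 and D8 but not at D0, and the comparisons of days share libraries. Groups of 3 libraries were not tested for outlying values.

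ARHGAP17 moved by -0.61 from D0 to D4 (adjusted p = 2.9e-05), by -0.28 from D0 to D8 (adjusted p = 0.017) and by 0.33 from D4 to D8 (adjusted p = 0.0073).

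The ZNF711 difference grew more negative, by -0.70 at D4 and -1.65 at D8 relative to D0 and by -0.95 at D8 relative to D4 (adjusted p = 0.00025, 3.9e-09 and 8.7e-06). SLC25A29 moved by -1.15 at D8 relative to D0 and by -1.14 relative to D4 (adjusted p = 3.5e-05 and 4.4e-05).

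SEPT6 moved by -0.45 at D4 and -0.36 at D8 relative to D0 (adjusted p = 0.00028 and 0.0012). PRMT2 moved by -0.23 at D4 relative to D0 and by 0.22 at D8 relative to D4 (adjusted p = 0.026 and 0.031). PLEKHA1 moved by 0.42 at D4 relative to D0 (adjusted p = 0.0023), and DLG1 by 0.27 at D8 relative to D0 (adjusted p = 0.0076). FRG1B, whose counts are uncertain because of near-identical relatives, moved by 1.38 at D4 and 1.52 at D8 relative to D0 (adjusted p = 1.0e-06 and 8.2e-08).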

How the results depend on the processing

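No called value of a named gene changed sign under the alternatives run. The balance of directions did turn with library totals: called member genes became 619 higher and 694 lower at D0 and 542 higher and 945 lower at D8, and of the D8 genes with a higher share of the form without a stop, 17 rose and 18 fell. With the inclusion range narrowed to 0.2 to 0.8, the D0, D4 and D8 fits called 844, 351 and 884 member genes, and member events called at D4 became 75, since fewer events are members. With at least 50 junction reads, 416 genes and 78 events were called at D4. With an inclusion difference of at least 0.2, the D0, D4 and D8 tables gave 159, 37 and 185 called events, and 14 were called in 293T cells. With FDR under 0.01, 76 were called at D4 and 27 in 293T cells. With the stop class taken from the reference transcript alone, genes that rose with a higher share of the form without a stop became 5 at D4, in place of 2.

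Leaving out 1 library at a time, the D0 fit called 1125 to 1265 member genes, the D4 fit 469 to 554, the D8 fit 1323 to 1515 and the nuclear fit 1604 to 1887. Events called numbered 534 to 576 (D0), 114 to 122 (day 4), 399 to 438 (day 8) and 41 to 45 (293T cells). Genes higher with a higher share of the form without a stop numbered 19 to 23, 1 to 2 and 20 to 21 on the 3 days. Genes lower with a lower share ranged from 10 to 12, 4 to 4 and 9 to 10.

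Replicate numbers did not pair the libraries (same-number correlations from -0.167 to 0.141). With the replicate block, the day 0, day 4 and day 8 fits called 1356, 635 and 1427 member genes, and the nuclear fit 1732. Among named genes and days, 12 lost and 7 gained a call under at least 1 alternative, and 945 of 1009 values kept direction and side of the threshold. Nuclear libraries were the shallowest. The tables name no arms, the class of 2452 members is not known, and an mRNA that decays is underrepresented in its inclusion level.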
